A study of Mus musculus with 2 samples.

Results

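Nkg7, Ccl5 and Gzma, 3 genes known for their place in cytotoxic lymphocytes, were followed cell by cell in the bone marrow of 1 WT and 1 Cko mouse. They were taken by symbol and make up 3 of the 7181 genes listed for the WT and 3 of the 6735 listed for the Cko. The marrow came from the fore- and hindlimbs of C57BL6/J animals at postnatal day 21 (P21), after red cells had been removed. The Cko mouse is homozygous for a floxed exon 2 of Mbtps1, the gene for site-1 protease (S1P), and carries the Osx1-GFP::Cre transgene, in which the promoter of Osx (Sp7), a factor of bone-forming cells, drives Cre. The control is labelled only as WT. Single-cell 3′ libraries were made from both, so each genotype is 1 library of 1 animal. No test between genotypes is possible, and every interval below is a 95% interval that covers counting error only.

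Cytotoxic T cells and natural killer (NK) cells kill targets by releasing granules. Gzma encodes granzyme A, a serine protease stored in these granules, and Nkg7 encodes a membrane protein of the granules that is needed for their efficient release. Ccl5 (Rantes) is a chemokine that T and NK cells secrete, and its receptors include Ccr1 and Ccr3. Granulocyte progenitors also fill granules with serine proteases, among them the products of Elane, Prtn3 and Ctsg, together with myeloperoxidase, the product of Mpo.

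Nkg7 (ENSMUSG00000004612) lies on chromosome 7 of GRCm38 at 43437073 to 43438249 on the plus strand. Ccl5 (ENSMUSG00000035042) lies on chromosome 11 at 83525778 to 83530518 and Gzma (ENSMUSG00000023132) on chromosome 13 at 113093825 to 113100981, both on the minus strand. All 3 are protein-coding in the GENCODE M21 annotation. The promoters of Nkg7 and Gzma are shown because both genes were counted in the same lymphocytes, while Nkg7 alone of the pair was counted in granulocyte progenitors. The sequences are from RefSeq (GRCm38.p6), which matched 2 of the 3 members by symbol, and read 5′ to 3′ on the strand of the gene up to the base before the GENCODE start. Capitals mark matches to TGTGGT, the core recognised by RUNX factors, or to AGGTGT, the core recognised by T-box factors, on either strand.
Nkg7, 185 bases, chr7:43436888-43437072, plus strand: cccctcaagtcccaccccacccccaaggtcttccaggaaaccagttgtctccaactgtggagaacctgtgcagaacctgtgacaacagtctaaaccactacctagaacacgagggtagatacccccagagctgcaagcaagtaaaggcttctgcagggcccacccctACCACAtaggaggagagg
Gzma, 250 bases, chr13:113100982-113101231, minus strand: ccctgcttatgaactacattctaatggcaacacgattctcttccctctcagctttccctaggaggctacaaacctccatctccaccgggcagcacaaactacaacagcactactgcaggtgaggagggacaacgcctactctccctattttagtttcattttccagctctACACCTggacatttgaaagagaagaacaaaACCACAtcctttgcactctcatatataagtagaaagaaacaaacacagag

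In the 250 bases before the RefSeq start, Nkg7 had a RUNX core 83 to 78 bases and a T-box core 14 to 9 bases upstream. The T-box match lies inside the longer GENCODE transcript and is outside the stretch shown. Gzma had a T-box core 80 to 75 bases and a RUNX core 50 to 45 bases upstream. Among 32851 RefSeq promoter windows of 250 bases, 14.0% held the RUNX core and 11.8% the T-box core. GAGGAA, the core of PU.1, and TTGCNNAA, a C/EBP core, matched neither window on either strand, and are held by 23.3% and 9.56% of all windows. The matches do not overlap each other and describe letters, not binding.

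The WT library kept 6271 cells with a median of 6977 UMIs (unique molecular identifiers, each standing for 1 captured transcript), and the Cko library 3662 cells with a median of 7440. Erythroid-like cells were 54.2% of WT and 15.0% of Cko cells. The libraries shared 28 cell barcodes, carried by 0 WT and 2 Cko cells of the T/NK-like class described next. Mbtps1 was at 31.9 CPM (UMIs per 1000000 UMIs) in the WT and 31.2 CPM in the Cko, but the 3′ reads lie outside the deleted exon, so this level does not check the labels.

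Cells were clustered without the 3 genes and named from marker genes. The T/NK-like class was 1 cluster with 19 WT cells (0.303%) and 64 Cko cells (1.75%). As a share of cells that were not erythroid-like, it was 0.661% (0.398 to 1.03%) in the WT and 2.06% (1.59 to 2.62%) in the Cko. The name came from the T/NK markers, so their counts describe the class and do not test the name. All 20 listed T/NK markers had UMIs in it in the WT and all 19 in the Cko. Their summed levels were 6831 and 8135 CPM, against 14.5 and 18.8 CPM in granulocyte progenitor-like cells. The granulocyte progenitor-like class was also 1 cluster, with 550 WT and 449 Cko cells, and all 10 of its markers were in at least 25% of its cells in both libraries. Markers of other cells were present in the T/NK-like class too. Its summed neutrophil markers were at 1616 CPM in the WT (12 of 19 listed genes with a UMI) and 27966 CPM in the Cko (17 of 18), and its erythroid markers at 18018 CPM in the WT (16 of 19) and 1223 CPM in the Cko (11 of 19). Among the granulocyte progenitor markers, Ctsg was at 0 there in the WT and the summed list was at 125 and 335 CPM. The part these had in the results below was not tested.

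The 3 genes split into a pair and a singleton. Ccl5 and Gzma were nearly confined to T/NK-like cells, whereas most Nkg7 UMIs came from granulocyte progenitor-like cells, in which UMIs of the other two genes were few or none. T/NK-like cells held 71.6% of all Ccl5 UMIs of the WT library and 91.8% of the Cko library. For Gzma these shares were 88.1% and 95.9%. For Nkg7 they were only 3.0% and 8.81%, and granulocyte progenitor-like cells held 83.9% and 76.6% of its UMIs. Gzma was not seen in any granulocyte progenitor-like cell (0 of 550 WT and 0 of 449 Cko cells, which allows shares of cells with a UMI, not of cells expressing the gene, of up to 0.545% and 0.668%).

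**Figure D1:**
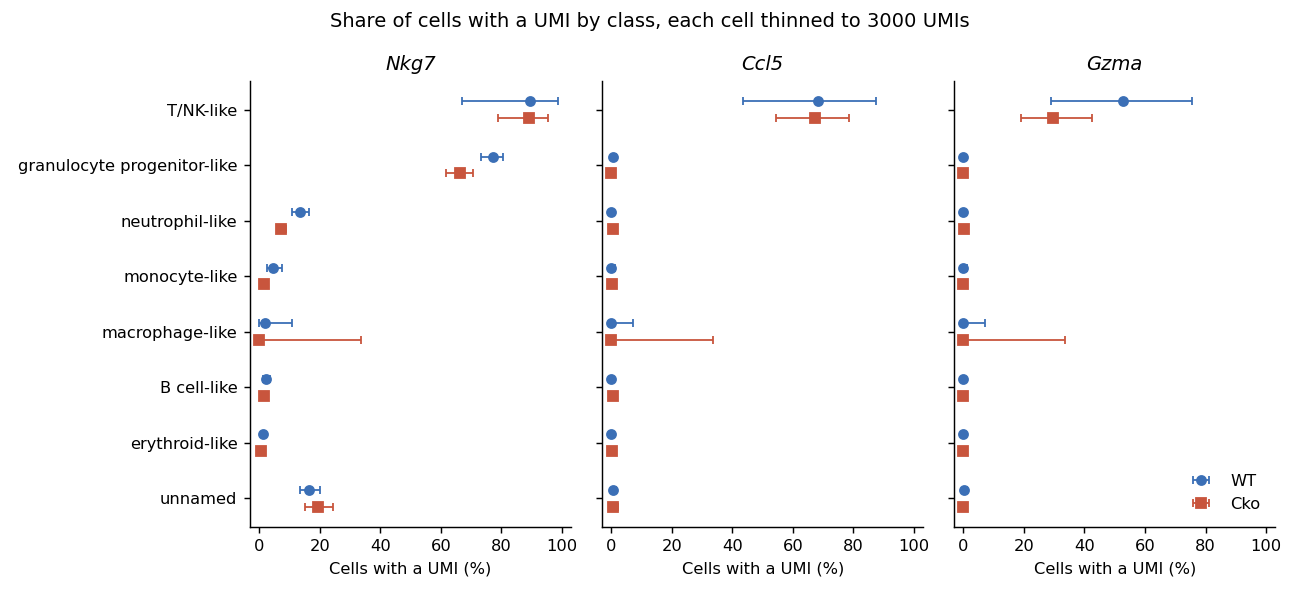
Share of cells with at least 1 UMI of Nkg7, Ccl5 or Gzma (x axis, %) in each class (y axis), with each cell thinned to 3000 UMIs. Points are the 1 WT library (blue circles) and the 1 Cko library (red squares), and bars are exact binomial 95% intervals. Nkg7 was frequent in T/NK-like and granulocyte progenitor-like cells, Ccl5 and Gzma only in T/NK-like cells.

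Per cell, Nkg7 was seen in 17 of 19 WT T/NK-like cells (89.5%) and in 58 of 64 Cko cells (90.6%). Thinned to 3000 UMIs a cell, so that depth is equal, the shares were 89.5% and 89.1%. Ccl5 was seen in 14 of 19 WT and 46 of 64 Cko cells, or 68.4% and 67.2% after thinning. Gzma was the least frequent, in 10 of 19 WT cells (52.6% after thinning, 28.9 to 75.6%) and 20 of 64 Cko cells (29.7%, 18.9 to 42.4%). The intervals of the genotypes overlapped for each gene.

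In granulocyte progenitor-like cells Nkg7 was in 88.9% of WT and 82.4% of Cko cells, and after thinning in 77.1% (73.3 to 80.5%) and 66.4% (61.8 to 70.7%). Ccl5 was in 6 of 550 WT and 2 of 449 Cko cells. Erythroid-like cells, which should lack all 3 genes, were used as the comparison for background, at median depths of 6982 and 8903 UMIs. Free RNA itself was not measured, and this class included a WT cell with 50 Ccl5 and 14 Gzma UMIs and 8 T/NK markers, and WT cluster 5, where Nkg7 was at 16.3 CPM against 2.64 CPM in cluster 0. Nkg7 was there in 3.42% of WT and 3.28% of Cko cells (1.30% and 0.547% thinned), Ccl5 in 0.353% and 1.09%, and Gzma in 0.0883% and 0.182%. The Ccl5 shares of granulocyte progenitor-like cells, 1.09% in the WT and 0.445% in the Cko, had intervals that overlapped this background, so at this depth the shares are read as background, although 2 WT cells given further on held 23 and 7 UMIs.

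In summed level, T/NK-like cells were the highest class for each gene in both libraries. For Nkg7 the T/NK-like level was 2516 CPM (2240 to 2816) in the WT and 1683 CPM (1546 to 1829) in the Cko. Granulocyte progenitor-like cells followed with 1212 CPM (1186 to 1238) and 656 CPM (638 to 675). T/NK-like cells were thus 2.08-fold (1.84 to 2.33) above granulocyte progenitor-like cells in the WT and 2.56-fold (2.34 to 2.80) above them in the Cko. For comparison, 12.4% of 6918 WT genes and 16.3% of 6554 Cko genes had an interval above 1 in this contrast.

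Below these classes, the unnamed cells, 3 clusters summed, were at 124 CPM (114 to 135) in the WT and 131 CPM (118 to 145) in the Cko. Neutrophil-like cells followed at 93.7 CPM (84.6 to 103.4) and 53.2 CPM (48.4 to 58.4). In the WT, monocyte-like (14.9 CPM), B cell-like (9.25), erythroid-like (8.80) and macrophage-like cells (5.26) had intervals that overlapped at least that of their neighbour in the order, so their order is not settled. In the Cko the levels were 9.43 CPM in monocyte-like, 6.24 in B cell-like and 4.03 in erythroid-like cells, again with overlapping neighbours, while macrophage-like cells held 2 Nkg7 UMIs in 9 cells. The neutrophil-like clusters differed: cluster 1, led by Chil3, Ngp and Camp, was at 112 CPM in the WT and 72.3 CPM in the Cko, and cluster 7, led by Mmp8, Retnlg and Ly6g, at 4.27 CPM (3 UMIs) and 10.8 CPM (28 UMIs). Of the 28 UMIs, 12 lay in 1 Cko cell that also held 11 T/NK markers. Unnamed cluster 10, led by Ctla2a, Ifitm1 and Plek, stood at 198 CPM in the WT and 186 CPM in the Cko.

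Ccl5 was at 2249 CPM (1989 to 2534) in WT and 4681 CPM (4450 to 4921) in Cko T/NK-like cells. Its highest measured level in another named class was 4.89 CPM in WT granulocyte progenitor-like and 7.45 CPM in Cko B cell-like cells, and the unnamed cells reached 17.2 CPM in the Cko. Macrophage-like cells had 0 Ccl5 and 0 Gzma UMIs, which allows levels of up to 7.89 CPM in the WT and 64.6 CPM in the Cko. T/NK-like cells were 460-fold (321 to 678) above granulocyte progenitor-like cells in the WT. Without the highest granulocyte progenitor-like cell this was 1420-fold (781 to 2878), and without the 2 highest 3895-fold. In the Cko, with 2 UMIs in granulocyte progenitor-like cells, it was 17142-fold (4737 to 141676). Gzma was at 1966 CPM (1723 to 2233) and 1482 CPM (1353 to 1620) in T/NK-like cells, and its highest measured level in another named class was 0.489 CPM in WT erythroid-like and 2.03 CPM in Cko neutrophil-like cells. In the Cko neutrophil-like cells 13 of the 17 Gzma UMIs lay in 1 cell with 11 T/NK markers. Against granulocyte progenitor-like cells, which held 0 UMIs, Gzma was at least 4559-fold higher in the WT and at least 3619-fold higher in the Cko, with 3 counts in the class as the limit.

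**Figure D2:**
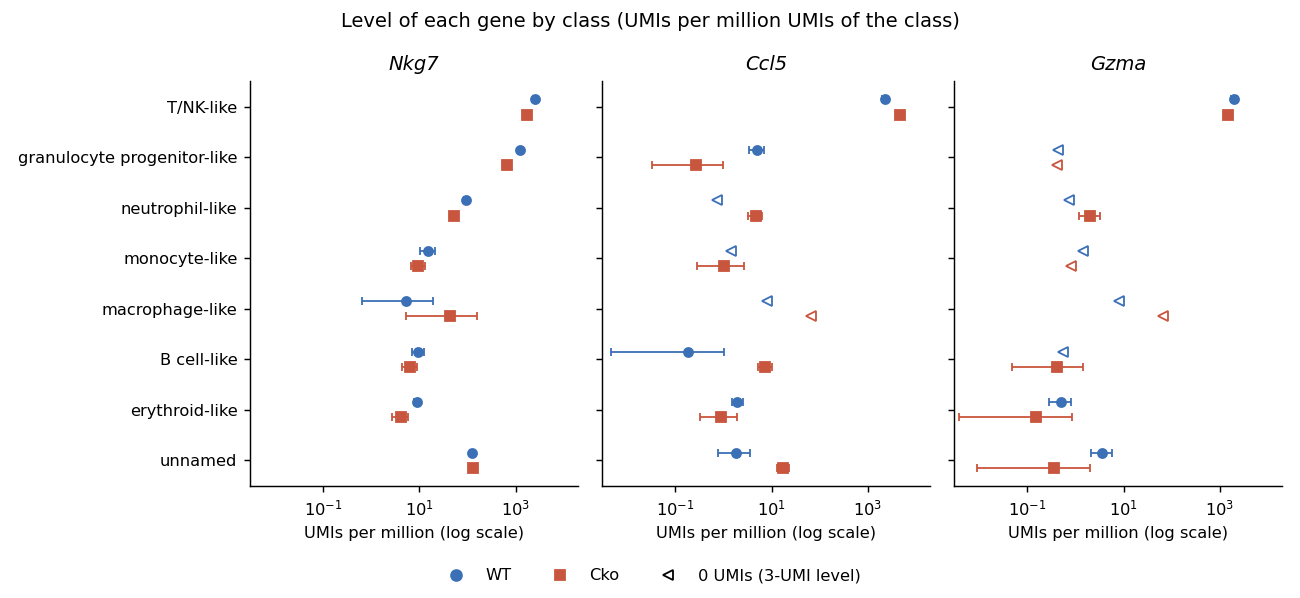
Level of each gene by class, as UMIs per 1000000 UMIs of the class (x axis, log scale), with exact Poisson 95% intervals as bars. Circles are WT, squares Cko, and open triangles mark classes with 0 UMIs at the level that 3 UMIs would give. The Nkg7 level of granulocyte progenitor-like cells, 1212 CPM in the WT and 656 CPM in the Cko, was close below that of T/NK-like cells, while the measured levels of Ccl5 and Gzma outside the T/NK-like class reached at most 17.2 CPM, in Cko unnamed cells. Classes with 0 UMIs are limited less tightly where they are small, at 64.6 CPM for the 9 Cko macrophage-like cells.

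Within the T/NK-like class the genes were often seen in the same cell. In the WT, each of the 14 cells with Ccl5 and each of the 10 cells with Gzma also had Nkg7, and each cell with Gzma also had Ccl5. All 3 genes were together in 10 of 19 cells, Nkg7 and Ccl5 in 4, Nkg7 alone in 3 and none of them in 2. In the Cko, 45 of 46 cells with Ccl5 and 19 of 20 cells with Gzma had Nkg7, and 17 of the 20 with Gzma had Ccl5. Nkg7 was in 89.5% of all WT and 90.6% of all Cko cells of the class, so the counts of cells that also had Nkg7 lie near its share over the class. Ccl5 was in 73.7% and 71.9% of the cells. All 3 were together in 16 of 64 Cko cells, Nkg7 and Ccl5 in 29, Nkg7 and Gzma in 3, Ccl5 and Gzma in 1, Nkg7 alone in 10 and none in 5. After thinning, all 3 were seen together in 47.4% (24.4 to 71.1%) of WT and 23.4% (13.8 to 35.7%) of Cko cells, with overlapping intervals. In granulocyte progenitor-like cells the pattern was Nkg7 alone, in 484 of 550 WT and 369 of 449 Cko cells, and 2 or more of the genes were seen in 5 and 1 cells.

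**Figure D3:**
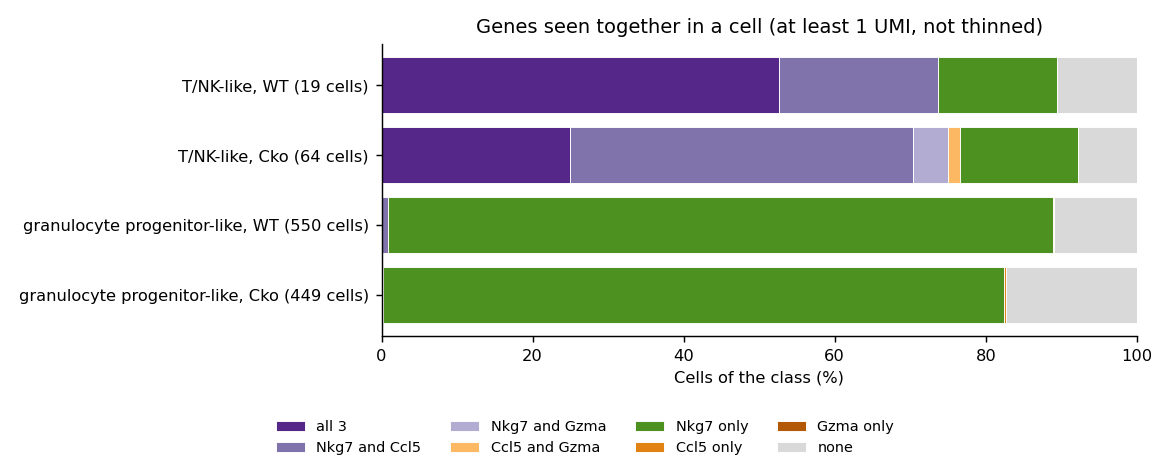
Combinations of Nkg7, Ccl5 and Gzma seen in the same cell (at least 1 UMI each, not thinned), as a share of the cells of each class and library (x axis, %). Colours are the combinations. Many T/NK-like cells carried several of the genes at once, all 3 in 10 of 19 WT and 16 of 64 Cko cells. Most granulocyte progenitor-like cells carried Nkg7 alone, and most of the others carried none of the genes.

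T/NK-like cells were next divided by UMIs of the Cd3 genes (Cd3d, Cd3e and Cd3g, parts of the T cell receptor complex) and of 12 NK receptor genes such as Klrd1 and Ncr1 (8 listed for the WT and 10 for the Cko). There were 7 WT and 10 Cko cells with an NK receptor and no Cd3, 9 and 33 with both, and 3 and 20 with Cd3 only. In 1 Cko cell neither was seen. Since a missing UMI is not a missing transcript, these are groups of counts and not of cell types.

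Gzma was most frequent in cells with NK receptors and no Cd3. It was in 6 of 7 WT and 10 of 10 Cko cells with an NK receptor and no Cd3, in 4 of 9 and 9 of 33 cells with both, and in 0 of 3 and 1 of 20 cells with Cd3 only. The single Gzma UMI of the last group compares with 266 UMIs in the 10 Cko cells with NK receptors alone. All 3 genes were together in 6 of 7 WT and 9 of 10 Cko cells with an NK receptor and no Cd3, and in 0 of 3 and 0 of 20 cells with Cd3 only. Nkg7 was seen in every cell with an NK receptor, 16 WT and 43 Cko cells, and in 1 of 3 and 14 of 20 cells with Cd3 only. Ccl5 was intermediate: it was in 9 of the 20 Cko cells with Cd3 only and in 27 of 33 with both.

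The cells also differed widely in level. In the WT the UMIs of Nkg7 ran from 0 through a median of 16 to 41 a cell, and in the Cko from 0 through 7 to 32. Ccl5 ran from 0 through 9 to 59 in the WT and from 0 through 6 to 221 in the Cko, where the 5 highest of 64 cells held 49.9% of the UMIs. Gzma ran from 0 through 1 to 57 in the WT and from 0 through 0 to 64 in the Cko. The ranges of the libraries overlapped for every gene, and the Cko cells reached higher for Ccl5 only by a wide margin. Of the 4 Cko cells with over 100 Ccl5 UMIs (132, 156, 168 and 221), 2 had NK receptors and no Cd3 and 2 had both, and each also held Gzma.

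**Figure D4:**
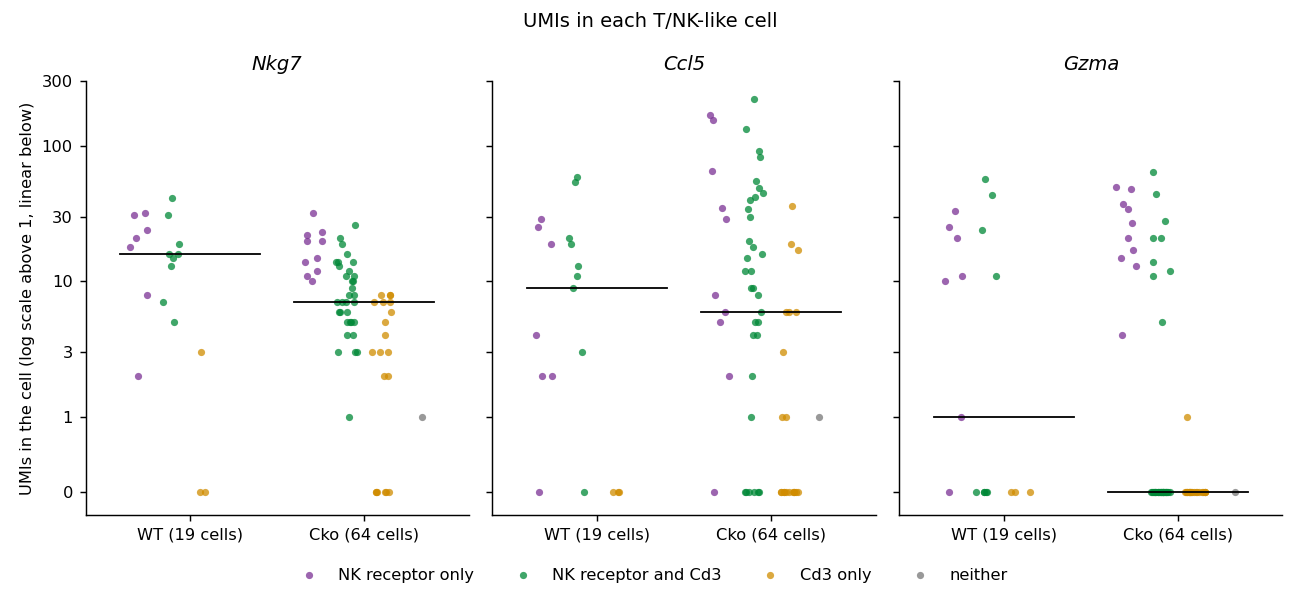
UMIs of Nkg7, Ccl5 and Gzma in each T/NK-like cell (y axis, log scale above 1 UMI) of the 1 WT library (19 cells) and the 1 Cko library (64 cells), coloured by whether the cell held UMIs of NK receptor genes, of Cd3 genes, of both or of neither. Black lines are medians over cells (16 and 7 for Nkg7, 9 and 6 for Ccl5, 1 and 0 for Gzma), and points are spread sideways only to separate them. Gzma was at 0 or 1 in all cells with Cd3 only.

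Set against the WT, the Cko T/NK-like cells held more Ccl5 and less Nkg7 and Gzma per UMI. The Cko to WT ratio was 2.08 (1.83 to 2.38) for Ccl5, 0.669 (0.580 to 0.772) for Nkg7 and 0.754 (0.644 to 0.884) for Gzma. In this class 19.9% of the 2462 genes compared were past 2-fold in either direction, 7.51% above 2, and the median gene stood at a log2 ratio of -0.25. Relative to that median the log2 ratios were 1.31 for Ccl5, -0.33 for Nkg7 and -0.15 for Gzma, and 69.2% of genes had a higher ratio than Nkg7 and 59.5% a higher ratio than Gzma, so these genes lay inside the bulk of genes. Without the highest cell of each library the ratios were 2.15, 0.687 and 0.814.

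The ratios were not the same in the subgroups. These subgroups were drawn from 8 listed NK receptor genes in the WT and 10 in the Cko, so they are not defined alike in both libraries. In cells with an NK receptor and no Cd3 the ratios were 4.73 (3.73 to 6.07) for Ccl5, 2.13 (1.69 to 2.71) for Gzma and 1.06 (0.847 to 1.34) for Nkg7, so Gzma was higher in the Cko there, over 7 and 10 cells. Of the 474 Ccl5 UMIs of these 10 Cko cells, 2 cells held 168 and 156. In cells with both the ratios were 1.79 (1.53 to 2.10), 0.568 (0.457 to 0.709) and 0.642 (0.529 to 0.781). In cells with Cd3 only, 3 in the WT and 20 in the Cko, the Nkg7 ratio was 4.37 (1.44 to 21.7), and Ccl5 and Gzma were at 0 UMIs in the WT against 95 and 1 UMIs in the Cko. Intervals did not overlap between the former pair of subgroups, but cells of 1 animal are not replicates and the difference was not tested. When every cell with UMIs of at least 2 T/NK markers was taken as T/NK-like, the log2 ratios of Nkg7 and Gzma turned to 0.475 and 0.629 in place of -0.58 and -0.41, while that of Ccl5 stayed positive at 2.04. This wider class added 141 WT and 132 Cko cells of other clusters. Only the direction for Ccl5 in summed level was therefore shared by the groupings named here, and it was not that of the median T/NK-like cell.

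Over all cells of a library, the share of T/NK-like cells enters the level as well. Ccl5 was then at 6.69 CPM in the WT and 48.7 CPM in the Cko, a ratio of 7.27 (6.499 to 8.15), and Gzma at 4.76 and 14.8 CPM, a ratio of 3.10 (2.67 to 3.61). Nkg7 was at 179 and 182 CPM, a ratio of 1.02 (0.989 to 1.05). Of 5871 genes, 14.9% were past 2-fold in either direction, 8.84% above 2, and 0.136% had a higher ratio than Ccl5.

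In granulocyte progenitor-like cells Nkg7 was lower in the Cko, with a ratio of 0.541 (0.522 to 0.561). Only 1.48% of 5125 genes were past 2-fold in this class, 0.78% below 0.5, and 99.04% of genes had a higher ratio than Nkg7. The ranges of the cells overlapped widely: WT cells ran from 0 through a median of 12 to 68 Nkg7 UMIs and Cko cells from 0 through 8 to 64. The difference lay at both ends, with 83 of 550 WT but 28 of 449 Cko cells at 30 UMIs or more, and 61 WT and 79 Cko cells at 0, although the median Cko cell was deeper (15681 against 12626 UMIs). The mix of cells in the class also differed between the libraries. At resolution 2.0 its cluster led by Elane, Ms4a3 and Prss57 held 335 WT and 184 Cko cells. Its cluster led by Ctsg, Mpo and Prtn3 held 222 WT and 267 Cko cells. The part of this mix in the ratio was not tested.

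The primary granule genes of the same cells did not share the size of this difference. Elane, the neutrophil elastase gene, was at 13905 CPM in the WT and 11578 CPM in the Cko (ratio 0.833). The ratios were 1.04 for Prtn3 (proteinase 3), 1.09 for Mpo, 1.02 for Ctsg (cathepsin G) and 0.928 for Ms4a3, a membrane protein of granulocyte progenitors. Per 100 Elane UMIs, granulocyte progenitor-like cells had 8.72 Nkg7 UMIs (8.52 to 8.91) in the WT and 5.67 (5.51 to 5.84) in the Cko. In T/NK-like cells these numbers were 7550 and 2304, since Elane was at 4 and 24 UMIs there.

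The Nkg7 ratio was also below 1 in each bin of cells from 3 Elane UMIs upwards. These bins use raw UMIs and do not match cells on Elane level. In the highest bin, which has no upper limit, the median cell had 12629 UMIs in the WT and 15834 in the Cko. Outside the T/NK-like class, cells with 100 or more Elane UMIs had Nkg7 at 1580 CPM (1546 to 1615) in 391 WT cells and 852 CPM (828 to 877) in 329 Cko cells, a ratio of 0.539 (0.520 to 0.559). The ratios were 0.505 at 30 to 99 Elane UMIs, 0.555 at 10 to 29 and 0.730 (0.536 to 0.987) at 3 to 9. In cells with 1 or 2 Elane UMIs the ratio was 1.45 and in cells with none 1.66, at levels of 13.5 to 22.4 CPM. In cells outside the T/NK-like class with 100 or more Mpo UMIs the ratio was 0.475 (0.455 to 0.496). Which cells are taken changes its size: with each library clustered alone, the class held 369 WT and 500 Cko cells, its level was 1812 and 615 CPM, and the log2 ratio was -1.56 against -0.89. The class was split more finely in the WT (resolution 1.8) than in the Cko (0.4) there.

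**Figure D5:**
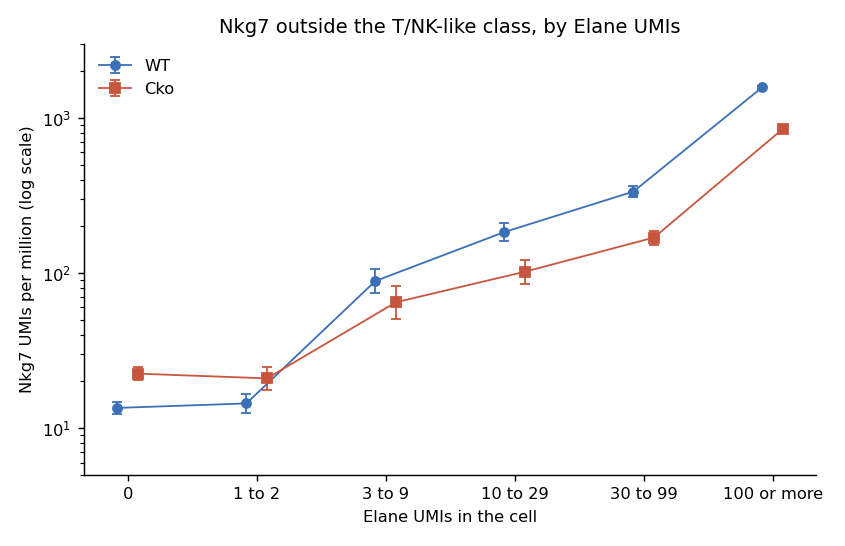
Nkg7 level in cells outside the T/NK-like class (y axis, UMIs per 1000000 UMIs, log scale) by the number of Elane UMIs in the cell (x axis), with exact Poisson 95% intervals as bars. Circles are WT, squares Cko. Nkg7 rose with Elane in both libraries, and the Cko level lay below the WT from 3 Elane UMIs upwards, at 852 against 1580 CPM in cells with 100 or more.

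Nkg7 climbed with the granule genes in both libraries. It was seen in 5.81% of WT cells without Elane outside the T/NK-like class and 98.98% of those with 100 or more Elane UMIs, and in 6.89% and 96.0% of Cko cells. Over the granulocyte progenitor-like cells, Pearson's r of the levels per cell with Nkg7 was 0.797 in the WT and 0.809 in the Cko for Ms4a3, 0.776 and 0.755 for Elane, 0.753 and 0.729 for Srgn (serglycin, the proteoglycan that packs granule proteases) and 0.331 and 0.315 for Ctsg. Ctsc, the gene of the protease that activates granule serine proteases, went the other way with -0.500 and -0.463. These are descriptions over 550 and 449 cells that share a library and its depth. Neutrophil-like cells kept the direction of the genotype difference, with a Nkg7 ratio of 0.568 (0.495 to 0.652) where 2.28% of 4255 genes were past 2-fold. The clusters of that class were not equally filled, with 466 WT and 631 Cko cells in cluster 1 and 172 and 551 in cluster 7, and their own ratios were 0.647 (0.562 to 0.745) and 2.52 (0.779 to 12.97). In unnamed cluster 10 the ratio was 0.936 (0.806 to 1.09), an interval that includes 1.

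The few cells with Ccl5 or Gzma outside the T/NK-like class were mostly single UMIs. Ccl5 was in 23 of 6252 WT cells (0.368%) and 30 of 3598 Cko cells (0.834%), of which 18 and 24 held 1 UMI. Gzma was in 4 WT (0.0640%) and 9 Cko cells (0.25%). Most of the outside UMIs lay in a few cells that also held UMIs of 2 or more T/NK markers: 60 of 107 WT and 113 of 137 Cko Ccl5 UMIs, and 30 of 32 and 14 of 21 Gzma UMIs. An example was a Cko cell of a neutrophil-like cluster with 27 Ccl5, 13 Gzma and 12 Nkg7 UMIs and 11 T/NK markers. The exceptions were 2 WT granulocyte progenitor-like cells with 0 T/NK markers, 1 with 23 Ccl5 and 0 Nkg7 UMIs and 1 with 7 Ccl5 and 9 Nkg7 UMIs, which held 30 of the 34 Ccl5 UMIs of their class.

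Other cytotoxic granule genes were also higher in T/NK-like cells where they were listed. All 3 listed genes of the granule protease and pore list in the WT (Gzmb, Gzmk and Ctsw) and both in the Cko (Gzmb and Ctsw) were higher in T/NK-like than in granulocyte progenitor-like cells, with intervals of the ratio that excluded 1, as for 12.4% of all WT and 16.3% of all Cko genes. Ctsw, cathepsin W, was at 408 CPM (302 to 540) in WT and 332 CPM (272 to 400) in Cko T/NK-like cells. Gzmb, granzyme B, was at 891 CPM (730 to 1077) in 7 of 19 WT cells and 91.3 CPM (61.6 to 130) in 8 of 64 Cko cells. In the WT 3 cells, with 36, 33 and 33 UMIs, held 102 of the 107 Gzmb UMIs. The pore gene Prf1 and the granzymes Gzmc and Gzmm were listed in neither library. The lowest maximum of any listed gene was 4 UMIs in a cell, so an unlisted gene is not a gene at 0. T/NK-like cells held 107 of 111 Gzmb and 12 of 12 Gzmk UMIs in the WT, and 30 of 33 Gzmb UMIs in the Cko. Such genes could be listed through these cells alone, so the count of higher genes describes them and tests no pattern.

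The genes for storage and control of granules did not move one way. Of 8 listed genes in the WT, 4 were higher in T/NK-like cells, 3 higher in granulocyte progenitor-like cells and 1 had an interval that included 1, and of 7 in the Cko the counts were 1, 3 and 3, where 16.3% of all Cko genes were higher and 20.5% lower in T/NK-like cells. Srgn was at 641 and 508 CPM in T/NK-like and 1768 and 1760 CPM in granulocyte progenitor-like cells of the WT and the Cko. Cst7, cystatin F, an inhibitor of cathepsin proteases, was at 91.6 and 82.2 CPM in T/NK-like and 289 and 322 CPM in granulocyte progenitor-like cells. Serpinb6b, a serpin gene, was at 175 and 186 CPM in T/NK-like cells but at 0.719 and 1.5 CPM in granulocyte progenitor-like cells.

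Of the other 5 chemokines listed, 3 were lower in Cko than in WT T/NK-like cells and Ccl6 was higher. Of the 2462 genes compared in this class, 12.3% had a Cko to WT ratio below 0.5 and 7.51% above 2. In T/NK-like cells Xcl1, lymphotactin, was at 1824 CPM (1591 to 2083) in 12 of 19 WT cells and 48.7 CPM (27.8 to 79.1) in 9 of 64 Cko cells. A single WT cell held 160 of the 219 UMIs, and without the highest cell of each library the levels were 528 and 33.8 CPM. Ccl4, a CC chemokine like Ccl5, was at 1424 CPM (1219 to 1655) in 4 of 19 WT cells and 30.4 CPM (14.6 to 56.0) in 6 of 64 Cko cells, and without the highest cells, which held 154 and 5 UMIs, at 152 and 15.6 CPM. Ccl3 was at 250 and 3.04 CPM, with 30 UMIs in 3 WT cells and 1 UMI in the Cko. Ccl6 was at 0 UMIs in the WT and 54.8 CPM (32.5 to 86.6) in 6 of 64 Cko cells, and Ccl9 at 0 and 2 UMIs. In granulocyte progenitor-like cells Ccl6 was at 13.1 and 19.7 CPM and Ccl9 at 57.8 and 88.1 CPM. In the cells of neither class Ccl6 was at 29.9 CPM in the WT and 151 CPM in the Cko. Of the Ccl5 receptors, Ccr1 was at 58.8 CPM in WT and 44.1 CPM in Cko granulocyte progenitor-like cells against 8.33 and 18.3 CPM in T/NK-like cells, and Ccr3 had 0 UMIs in WT T/NK-like cells.

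The NK receptor genes, with Il2rb added to the 12 above, 9 of 9 listed in the WT and 11 of 11 in the Cko, and the genes of the T cell receptor complex, 6 of 6 and 8 of 8, were all higher in T/NK-like than in granulocyte progenitor-like cells. The clustering could use those of these genes that were listed in both libraries, so the counts describe the class. Of all genes, 12.4% in the WT and 16.3% in the Cko had an interval above 1 in this contrast. Klrd1 (CD94, an NK receptor chain) was at 466 and 438 CPM in T/NK-like cells. Ncr1, the NK receptor NKp46, was at 217 and 91.3 CPM, and Cd8b1, a chain of the CD8 co-receptor of T cells, with 12 UMIs in 3 WT cells and 202 UMIs in 35 Cko cells. The mix of cells inside the class thus differed between the libraries, with Cd8b1 in 3 of 19 and 35 of 64 cells. Of the lymphocyte regulators listed, 2 in the WT and 5 in the Cko, all were higher in T/NK-like cells, as were 12.4% of all WT and 16.3% of all Cko genes. The WT genes, Lef1 and Il7r, had only 8 and 5 UMIs there. Some Cko genes could be listed through this class alone, such as Eomes with 32 of 32 UMIs in it, so this count is a description too. All 5 primary granule genes were higher in granulocyte progenitor-like cells in both libraries, where 6.59% of WT and 20.5% of Cko genes had an interval below 1. These 5 genes are also markers that named the class, so their count describes the class and tests nothing. Fcer1g and Tyrobp, adaptors shared by NK and myeloid cells, were at 1041 and 700 CPM in WT T/NK-like cells and 637 and 903 CPM in WT granulocyte progenitor-like cells. In the Cko the intervals of both ratios included 1, with Fcer1g at 736 and 732 CPM and Tyrobp at 883 and 985 CPM.

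Levels over clusters restate the split between Nkg7 and the pair. Across 29 points, each a cluster of 1 library with at least 10 cells, the genes most like Ccl5 in log2(CPM + 10) were Trbc2, Trbc1, Thy1, Klrd1 and Ctsw, with Pearson's r from 0.979 to 0.985. Those most like Gzma were Ctsw, Cd3e, Trbc1, Cd3g and Klrd1, with r from 0.978 to 0.993. Those most like Nkg7 were Arsb (0.886), Cst7 (0.884), B4galnt1 (0.836), Cd69 (0.817) and Tmem66 (0.766). Ccl5 and Gzma were at 0.976 with each other, Gzma ranking 8 for Ccl5 and Ccl5 ranking 7 for Gzma among 5871 genes, but at 0.668 and 0.650 with Nkg7. Ccl5 and Gzma were high only in the T/NK-like points, so these points largely set the r values of the pair. The points share libraries and clusters, so the values are descriptions.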

How the data were processed

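Single-cell 3′ libraries (Chromium v2) of bone marrow cells from 1 WT and 1 Cko mouse were used. The authors deposited raw UMI counts, 1 integer for each gene in each barcode, 56382459 UMIs for the WT and 34447224 for the Cko. The submitters' processing notes name Cell Ranger and GRCm38, and the Cell Ranger version is not given in the sources used here. A row and a column of totals were dropped and a WT symbol present in 2 rows was summed. Per-sample columns left unused numbered 0.

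Cells with at least 200 genes were kept. Both libraries were clustered together in Seurat 5.3.0 (R 4.3.3), on log-normalized counts per 10000, 2000 variable genes without the 3 members, 20 principal components with mitochondrial and ribosomal shares regressed out, at resolution 0.4, the lowest that gave a T/NK-like and a granulocyte progenitor-like cluster. A cluster was named for the class with most markers among its 25 leading genes (at least 1 there, and at least 3 in all that were in 25% or more of its cells and 1.5-fold up; erythroid-like cluster 5 had 1 and 9), and stayed unnamed where another class had a comparable count in its top 10. Doublets were called with Scrublet (scanpy 1.11.5; 2.03% of WT and 1.39% of Cko cells) and kept in the main values. For thinned shares 4 WT and 0 Cko cells under 3000 UMIs were left out. Levels are UMIs per 1000000 UMIs of a class (CPM). Intervals are exact Poisson for levels, exact binomial (Clopper-Pearson) for shares and exact conditional for ratios, at 95%. They ignore the spread between cells and animals. The limit for 0 was 3 counts. Ratios were set beside genes with at least 100 UMIs in the class (20 for T/NK-like cells). Correlations per cell used log2(UMIs per 10000 + 1). Named genes were the members, the listed genes of fixed lists (granule proteases, granule storage, chemokines, Ccl5 receptors, NK receptors, T cell receptor complex, lymphocyte regulators, adaptors, primary granule genes), the 5 genes most like each member over clusters, Mbtps1 and genes leading a cluster. The members and the lists were chosen with earlier results of these data known. Scripts were tested on simulated data.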

Additional observations from a re-analysis of the deposited data

How the results depend on the processing

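No paired analysis was possible because each genotype is 1 library and the labels carry no replicate numbers, and for the same reason no library could be left out. Over 57 results and 14 alternative settings planned, 350 values were recomputed, of which 260 moved by less than the counting interval, 88 moved further and 2 changed sign. The cause of these moves was not tested. Resolution 2.0 moved none of them. With 1 animal a genotype, no value here separates genotype from animal, library or cell capture, and 19 WT T/NK-like cells leave wide intervals on every share.

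With the class given per cell from marker UMIs, the T/NK-like log2 ratios of Nkg7 and Gzma turned to 0.475 and 0.629, that of Ccl5 was 2.04, and that of Nkg7 in granulocyte progenitor-like cells was -1.03. In WT T/NK-like cells the shares with Nkg7, Ccl5 and Gzma were then 16.2%, 10.6% and 7.50%, the levels 253, 210.4 and 169.6 CPM, the shares of library UMIs 3.95%, 87.5% and 99.3%, and all 3 genes were together in 6.88%. In the Cko the shares were 38.3%, 24.0% and 10.2%, the levels 352, 864 and 262 CPM, the shares of library UMIs 10.7%, 98.57% and 98.62%, and all 3 were together in 8.16%. For Nkg7 in granulocyte progenitor-like cells the shares were 42.6% and 27.4%, the levels 669 and 327 CPM and the shares of library UMIs 92.9% and 86.1%. Ccl5 was at 2.51 CPM in the WT class, and the Cko class held 0.597% of Ccl5 and 0.984% of Gzma UMIs.

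With each library clustered alone, Nkg7 in granulocyte progenitor-like cells was at 1812 CPM in the WT and 615 CPM in the Cko, a log2 ratio of -1.56, was in 98.4% of WT cells, and had 78.7% and 79.1% of library UMIs there. T/NK-like cells held 84.9% of WT and 95.5% of Cko Ccl5 UMIs and 93.3% and 98.4% of Gzma UMIs. Ccl5 in WT granulocyte progenitor-like cells fell to 0.687 CPM, 0.796% of library UMIs and 0% of cells, against 4.89 CPM. With the members in the clustering, T/NK-like cells held 84.9% and 93.3% of WT Ccl5 and Gzma UMIs. Nkg7 in granulocyte progenitor-like cells was then in 68.5% and 59.5% of cells, at 1032 and 578 CPM, with 87.3% and 82.0% of library UMIs, and Cko Ccl5 there was at 5.73 CPM (3.04%).

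Without called doublets, Nkg7 in granulocyte progenitor-like cells was in 70.4% of WT cells, at 1071 and 619 CPM, with 89.7% and 81.9% of library UMIs and a log2 ratio of -0.79, and Cko Ccl5 was at 6.23 CPM (3.05%). With at least 500 genes a cell these values were 70.0%, 1061 and 621 CPM, 87.3% and 81.2%, -0.77, 6.21 CPM and 3.05%. The share of granulocyte progenitor-like cells with Nkg7 was 88.9% and 82.4% unthinned, 72.5% and 57.2% thinned to 2000 UMIs, and 68.0% and 48.8% for at least 2 UMIs. Scaled by the median of ratios, the T/NK-like log2 ratios of Nkg7, Ccl5 and Gzma were -0.33, 1.31 and -0.15. With no filter on low counts, 2079 genes in place of 489 were past 2-fold in T/NK-like and 381 in place of 76 in granulocyte progenitor-like cells. With bins of Mpo, Nkg7 was at 11.3 and 14.4 CPM without Mpo and at 1539 and 731 CPM from 100 UMIs. Of the 5 genes most like Ccl5, 3 were shared with a log constant of 1 and 2 with 50, and of those most like Gzma 3 with 1. Chosen after seeing the data, leaving out the highest and the 2 highest WT granulocyte progenitor-like cells raised the Ccl5 fold of T/NK-like over these cells from 460 to 1420 and 3895.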

Other observations

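Some values stood out after they had been seen. The 171 Ccl4 UMIs of WT T/NK-like cells came from 4 of 19 cells, and 25 further Ccl4 UMIs lay in 1 of the 550 WT granulocyte progenitor-like cells. Irf8, a factor of monocyte and dendritic cell fate, and Cd34, a mark of early progenitors, were set against Nkg7 outside the rule for named genes. In granulocyte progenitor-like cells Pearson's r with Nkg7 was -0.746 in the WT and -0.798 in the Cko for Irf8, and -0.414 and -0.439 for Cd34, over 550 and 449 cells of 1 library each.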
